A study of Mus musculus with 12 samples.

Results

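The response of each gene to 85% oxygen was compared between the lung and the ileum of neonatal mice, as the difference between the hyperoxia response of the ileum and that of the lung (the tissue by oxygen interaction). All 12 arrays of the series entered the comparison, and the genes were those that 1 and the same probe detected in both tissues, 10228 of the 19057 genes with a named probe. Each bead array read labelled RNA of a tissue piece in 1 colour, and lung and ileum were each read on 3 arrays in normoxia and 3 in hyperoxia. All mice were labelled C57BL/6 (C57Bl/6J in the methods) and aged 14 days, and carried no transgene or deletion in the labels. Normoxia pups breathed oxygen at a fraction of 0.21 and hyperoxia pups at 0.85, between day 3 and day 14 of life, as a model of bronchopulmonary dysplasia, the chronic lung disease of preterm infants. The labels give the right lung, the methods the left lower lobe, and both give the terminal ileum. Litters born together were pooled and shared out between the dams, and which litter each array came from was not stated. Whether the 3 replicates of a group came from different animals is not stated in the sources used here, so that p-values measure only how far these samples scatter, and that scatter may be technical.

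On 6 of the 12 arrays the source name gives the other tissue than the tissue label does. The tissue label was used, because with the source name each tissue would hold 1 exposure alone and the comparison could not be made. Markers followed the tissue label on every array: 9 lung markers (surfactant proteins among them) had a mean normalized log2 intensity of 13.03 in normoxia lung and 12.97 in hyperoxia lung against 5.42 and 5.46 in the ileum, and 9 ileum markers had 9.54 and 9.17 in the ileum against 4.77 and 4.77 in the lung. The arrays detected 42.6% to 46.0% of their probes. Signal over background (the 95th percentile of intensity over the array's background) was 11.8 to 13.7 on the hyperoxia ileum arrays and 15.1 to 19.9 on the other 9 arrays. It therefore moved with the exposure in the ileum, and with it as a covariate the interaction was called for 1001 genes, against 2778 without it. Within the ileum its values do not overlap between the exposures, so there signal and exposure cannot be told apart.

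Excess oxygen raises the production of reactive oxygen species in exposed cells. Several transcription programmes are known to answer such stress: NRF2, which binds antioxidant response elements and drives detoxifying enzymes, p53, which halts the cell cycle, and the integrated stress response, in which ATF4 drives amino acid uptake and synthesis. Breathed oxygen meets the alveolar surface of the lung directly, whereas the gut is reached through the blood, and the ileum also meets the microbiota from its lumen. Whether a gene answers alike in both organs is what the comparison asks.

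The 2 responses had little in common across genes. A gene was called in a comparison at an adjusted p under 0.05 from limma over the 10228 genes. The ileum response was called for 2607 genes (25.5%), of which 1224 rose (12.0%) and 1383 fell (13.5%), and the lung response for 2018 genes (19.7%), of which 1004 rose (9.82%) and 1014 fell (9.91%). The interaction was called for 2778 genes (27.2%), of which 1332 were higher (13.0%), meaning that the ileum response lay above the lung response, and 1446 were lower (14.1%). For 1897 of them the responses differed by at least 2-fold. Pearson's r between the log2 fold changes of the ileum and the lung was -0.0429 across the 10228 genes (Spearman's rho -0.0908), as a description, since genes are not independent replicates. The median log2 fold change was -0.0287 in the ileum and 0.0232 in the lung. Quantile normalization removes a change common to most genes, so changes are relative to the bulk of the genes.

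Genes fell into 5 classes by which of these comparisons were called. Both tissues and the interaction were called with opposite directions for 284 genes (2.78%), which rose in the ileum and fell in the lung (113) or fell in the ileum and rose in the lung (171). Another 223 genes (2.18%) changed in the same direction in both tissues without a called interaction, 87 upward and 136 downward, and are termed shared. A further 27 genes (0.264%) changed in the same direction with a called interaction, and 20 of these changed more in the lung. Ileum-only genes, with the ileum and the interaction called and the lung not, numbered 1138 (11.1%; 549 rose and 589 fell). Lung-only genes, called the other way round, numbered 947 (9.26%; 461 rose and 486 fell). For the last 382 genes the interaction alone was called. With signal over background as a covariate, opposite genes numbered 61, shared 43, unequal 2, ileum-only 114 and lung-only 630. A call in 1 tissue was not by itself evidence of a difference: of 2073 genes called in the ileum alone, the interaction was called for 1138 (54.9%), and of 1484 called in the lung alone, for 947 (63.8%). The 534 genes called in both tissues were 20.5% of the ileum calls, beside 19.7% of all genes called in the lung. They were 26.5% of the lung calls, beside 25.5% of all genes called in the ileum. The overlap was thus near the share over all genes, and 250 of these genes changed in the same direction and 284 in opposite directions.

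**Figure D1:**
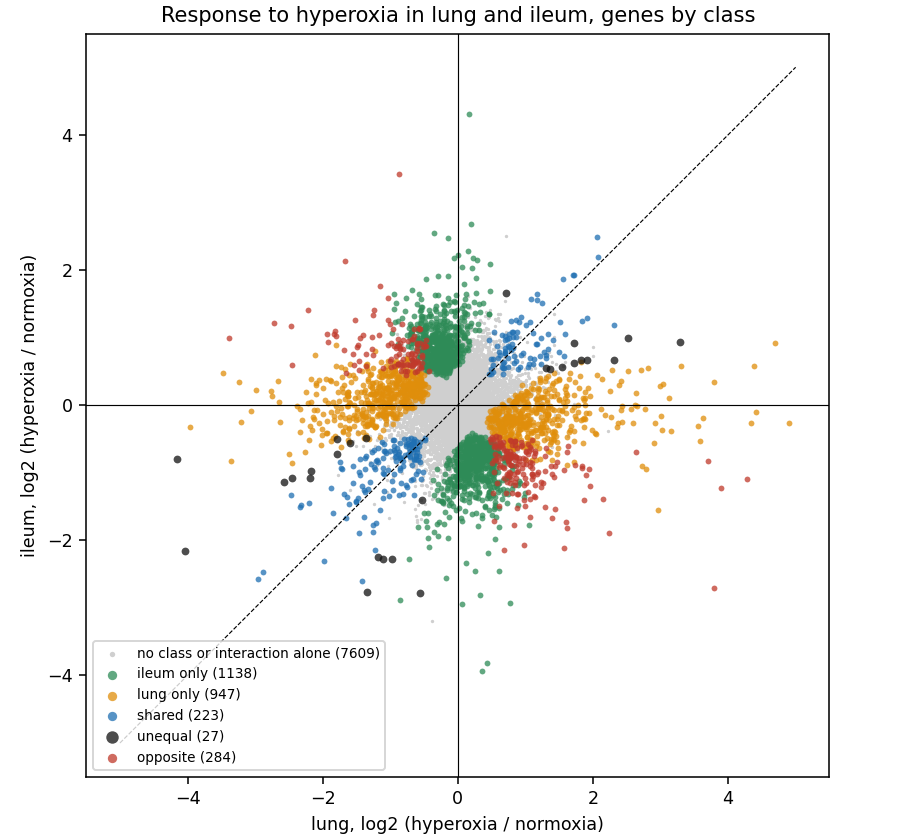
Each point is 1 of the 10228 genes, placed by its log2 fold change (hyperoxia over normoxia) in the lung on the x axis and in the ileum on the y axis, and coloured by class; the dashed line marks equal change. The cloud has no slope (r = -0.0429), the 284 opposite genes fill the upper left and lower right, and the 223 shared genes lie along the dashed line.

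In the shared class, the whole 95% interval of the difference lay within a log2 difference of 1 for 142 of 223 genes (63.7%), a share that requiring an uncalled interaction favours. The other shared genes may differ between the tissues by more than 2-fold. Of the ileum-only genes, 985 of 1138 had a lung estimate of the opposite sign, and of the lung-only genes 690 of 947 an ileum estimate of the opposite sign, which requiring a called interaction favours. The arrays of a tissue did not overlap between the exposures, in both tissues at once and in opposite directions, for 1057 genes (10.3%), and in the same direction for 775 (7.58%). Without normoxia ileum replicate 3, opposite genes numbered 143, shared genes 125 and ileum-only genes 484. Opposite genes numbered 162, 168 and 167 without normoxia lung replicate 1, normoxia lung replicate 2 and normoxia ileum replicate 2. Shared genes numbered 145, 141 and 146 without normoxia lung replicate 2, normoxia ileum replicate 2 and hyperoxia lung replicate 1, and ileum-only genes 693 and 687 without normoxia ileum replicate 2 and hyperoxia ileum replicate 3.

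Acute-phase and stress genes stood at the head of the genes that rose in the lung and fell in the ileum. Saa3, an acute-phase serum amyloid, had the largest interaction of all genes tested. In the lung its normalized log2 intensity was 8.43, 9.86 and 8.14 in normoxia and 13.22, 12.76 and 11.85 in hyperoxia, and in the ileum 9.55, 9.45 and 10.37 in normoxia and 7.51, 8.23 and 5.52 in hyperoxia. No lung hyperoxia array overlapped a normoxia array, nor did any in the ileum, where replicate 3 was the lowest. The log2 fold change was 3.80 in the lung and -2.70 in the ileum, an interaction of -6.50 ± 0.85 (SE; limma adjusted p = 0.000254).

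Cdkn1a encodes p21, the inhibitor of cyclin-dependent kinases that p53 induces. Its lung arrays read 9.35, 9.32 and 9.46 in normoxia and 13.30, 13.50 and 13.03 in hyperoxia, and its ileum arrays 10.75, 10.93 and 10.94 against 9.80, 9.89 and 9.27. Normoxia ileum thus read above normoxia lung, while in hyperoxia the order was turned and the lung read above the ileum on every array. The interaction was -5.12 ± 0.26 (adjusted p = 1.21e-07), and both other Cdkn1a probes gave values of the same direction (-5.42 and -5.36).

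Slc7a11, the cystine and glutamate antiporter that feeds glutathione synthesis and a target of both NRF2 and ATF4, read 5.26, 4.96 and 5.13 in normoxia lung and 8.89, 8.77 and 8.79 in hyperoxia lung. In the ileum it read 5.76, 6.05 and 5.51 in normoxia, and it was not detected on any hyperoxia ileum array. The lung rise was 3.70 on the log2 scale, and the ileum fall was at least 1.45-fold. A second Slc7a11 probe gave a smaller interaction (-1.73), with a lung value of 1.57 and an ileum value of -0.16, so the ileum fall rests on 1 probe. Lcn2, which binds bacterial siderophores, rose from 11.94, 11.78 and 11.49 to 14.10, 13.81 and 13.74 in the lung, and in the ileum it read 6.38, 6.43 and 6.31 in normoxia and was not detected on any hyperoxia array, a fall of at least 2.20-fold. Serpina3n, an acute-phase protease inhibitor, behaved in the same way, with a log2 rise of 2.23 in the lung and a fall of at least 2.44-fold in the ileum. Sfn, the epithelial 14-3-3 sigma protein that p53 also induces, rose by 1.62 in the lung and fell by 1.82 in the ileum on the log2 scale (adjusted p = 8.34e-05 for the interaction). Gpx2, the gastrointestinal glutathione peroxidase, read 9.28, 8.40 and 9.51 in normoxia lung and 10.72, 10.90 and 10.36 in hyperoxia lung. In the ileum it read 13.06, 12.72 and 12.41 against 11.04, 11.36 and 10.59. The tissues were thus far apart in normoxia and close in hyperoxia. With the signal covariate the opposite class was lost for Saa3, Cdkn1a, Slc7a11 and Gpx2 and kept for Serpina3n, Lcn2 and Sfn. The interaction of each of these genes was still called.

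**Figure D2:**
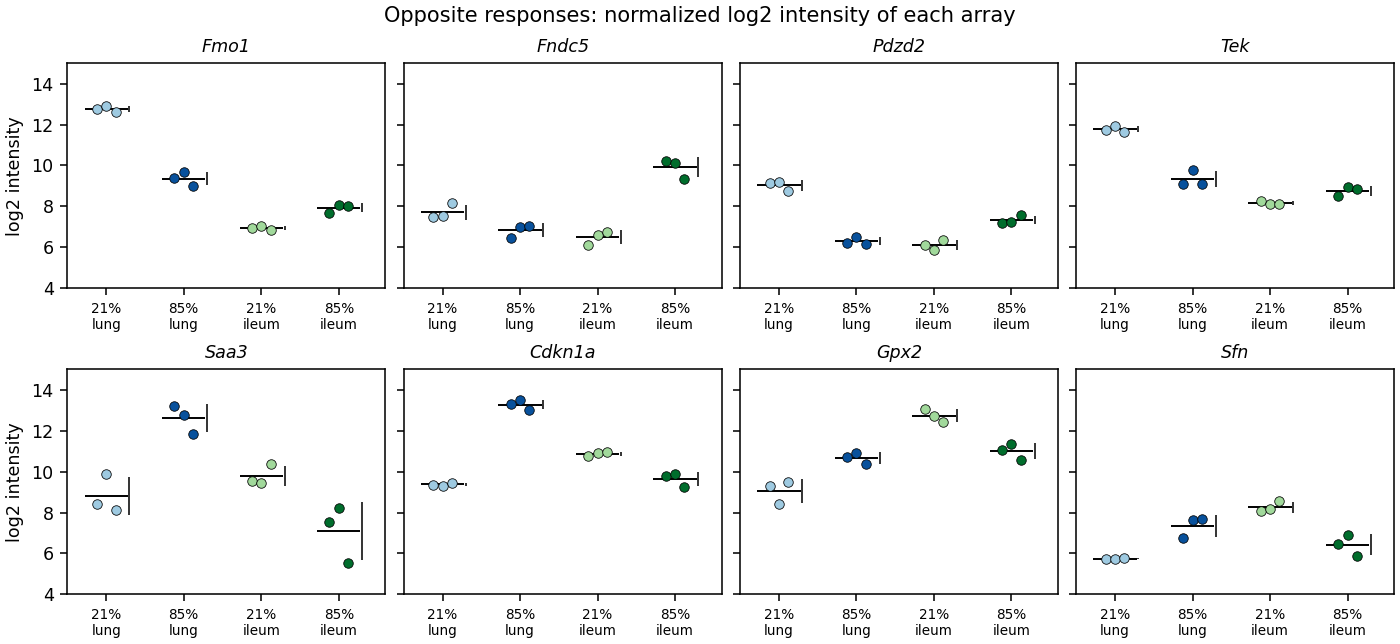
Normalized log2 intensity (y axis) of every array for 8 genes with opposite responses, with the lung in 21% and 85% oxygen, then the ileum in 21% and 85% oxygen, along the x axis; dots are arrays, horizontal bars group means and vertical bars 1 SD (n = 3). In the upper row the lung falls and the ileum rises, in the lower row the reverse, and no exposure groups overlap within a tissue.

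Genes that rose in the ileum and fell in the lung included genes of vessels and of signalling. Fmo1, a flavin monooxygenase that oxidises foreign compounds, had the largest interaction of this kind. It read 12.74, 12.92 and 12.60 in normoxia lung and 9.39, 9.67 and 9.02 in hyperoxia lung, and 6.93, 7.03 and 6.84 in normoxia ileum against 7.69, 8.09 and 8.02 in hyperoxia ileum. All exposure groups were apart, with a lung fall of 3.39, an ileum rise of 0.99 and an interaction of 4.39 ± 0.26 (adjusted p = 4.20e-07) on the log2 scale. Fndc5, the precursor of the secreted peptide irisin, rose from 6.11, 6.61 and 6.76 to 10.23, 10.14 and 9.35 in the ileum. Its lung levels fell from 7.46, 7.53 and 8.15 to 6.45, 7.00 and 7.06, a smaller change (-0.88, adjusted p = 0.0377). The opposite class was lost on leaving out any 1 normoxia lung array, normoxia ileum replicate 2, hyperoxia lung replicate 1 or hyperoxia lung replicate 2, while the interaction (4.29) was still called on leaving out each of these. Pdzd2, a PDZ-domain protein, was opposite under all 25 alternatives tried, with a lung fold change of -2.72 and an ileum fold change of 1.22 on the log2 scale.

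Tek, the angiopoietin receptor of endothelium, read 11.74, 11.95 and 11.65 in normoxia lung and 9.11, 9.79 and 9.08 in hyperoxia lung. Its ileum arrays read 8.26, 8.13 and 8.11 in normoxia and 8.50, 8.93 and 8.84 in hyperoxia. The lung fell by 2.45 and the ileum rose by 0.59 on the log2 scale, and the ileum call was near the threshold (adjusted p = 0.0446): the opposite class held under 11 of 25 alternatives and was lost on leaving out any 1 normoxia array of either tissue, hyperoxia lung replicate 1, or hyperoxia ileum replicate 2 or 3. Calcrl, the receptor subunit for adrenomedullin and calcitonin gene-related peptide, fell by 2.47 in the lung and was not detected on any normoxia ileum array, which leaves a rise of at least 1.73-fold in the ileum. Sema6a, a transmembrane semaphorin, fell by 2.22 in the lung and rose by 1.41 in the ileum on the log2 scale. Its other probe gave -2.06 in the lung and 0.28 in the ileum, so the ileum rise rests on 1 probe, and the opposite class was lost without normoxia ileum replicate 3. Cacnb2, a subunit of voltage-gated calcium channels, fell by 1.67 and rose by 2.14, but other probes gave smaller interactions (1.67, and 0.71 with an adjusted p of 0.10). The opposite class of Cacnb2 held under 15 of 24 alternatives and was lost on leaving out any 1 normoxia lung array, hyperoxia lung replicate 1 or hyperoxia lung replicate 2. With the signal covariate the opposite class was lost for Fndc5, Calcrl, Sema6a and Cacnb2 and kept for Fmo1 and Pdzd2. Calcrl also lost it without background correction and with an ordinary linear model. Per2, a repressor of the circadian clock, read 10.35, 10.21 and 10.25 in normoxia lung against 9.57, 9.69 and 9.00 in hyperoxia lung, and in the ileum 10.93, 10.73 and 10.65 against 11.81, 11.49 and 11.53. It fell by 0.85 in the lung and rose by 0.84 in the ileum on the log2 scale, changes of nearly equal size, with no overlap in either tissue (interaction 1.69 ± 0.27, adjusted p = 0.000853).

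Most chemokines and macrophage genes rose in the lung, and no chemokine rose in the ileum. Of 16 tested chemokines, the interaction was lower for 11 (68.8%) and higher for 0, beside 14.1% and 13.0% of all genes. For this list and those below, 9.82% of all genes rose and 9.91% fell in the lung. In the ileum 12.0% rose and 13.5% fell. Where detection on all 12 arrays was required, 9 chemokines were tested and the interaction was lower for 5. The lung rise was called for 11 of the 16, and 8 were lung-only. Ccl7, which attracts monocytes, read 5.76, 5.77 and 5.57 in normoxia lung and 9.95, 9.99 and 10.16 in hyperoxia lung, against 5.60, 5.49 and 5.73 in normoxia ileum and 5.41, 5.62 and 4.99 in hyperoxia ileum. The ileum groups overlapped and stayed at the level of normoxia lung, while the lung rose by 4.34 on the log2 scale (interaction -4.61 ± 0.25, adjusted p = 1.35e-07). Cxcl1, a neutrophil attractant, rose by 3.59 and Ccl9 by 3.00 in the lung, with ileum values of -0.54 and -0.17 that were not called. Cxcl10, the interferon-induced ligand of CXCR3, was opposite: it rose by 1.86 in the lung and fell at least 1.93-fold in the ileum, where no hyperoxia array detected it. This held under 18 of 24 alternatives and was lost without normoxia ileum replicate 1, normoxia ileum replicate 3 or hyperoxia ileum replicate 2.

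Of 12 tested genes of macrophages and monocytes, the interaction was lower for 8 and higher for 0. The count was 5 of 9 tested where detection on all 12 arrays was required. Trem2, a lipid receptor of macrophages, read 6.92, 6.72 and 6.79 in normoxia lung and 9.08, 9.00 and 10.73 in hyperoxia lung, and Arg1, the arginase of alternatively activated macrophages, read 6.48, 5.94 and 6.35 against 8.33, 10.06 and 11.75. In both, hyperoxia lung replicate 3 was the highest. In the ileum Arg1 was not called (0.34), and Trem2 was not detected on any hyperoxia array. The lung-only class of Trem2 was lost on leaving out any 1 hyperoxia lung array, while its interaction was still called. Cd14, the endotoxin co-receptor, rose by 1.14 in the lung and fell by 1.18 in the ileum on the log2 scale. The mean log2 intensity of the 20 macrophage and monocyte genes with a probe was 7.73 to 7.89 in normoxia lung, 8.57 to 9.41 in hyperoxia lung, and 6.83 to 6.86 against 6.57 to 6.74 in the ileum. In these tissue pieces more cells of a type and more RNA per cell cannot be told apart.

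Most cell cycle genes rose in the lung. Of 30 tested genes of the cell cycle and DNA replication, the lung rise was called for 25 and the ileum fall for 6, and the interaction was lower for 21 (70.0%) and higher for 0. Under the 25 alternatives the count of lower interactions ranged from 16 to 25, with 16 under the signal covariate. Tk1, the thymidine kinase of the S phase, read 7.05, 7.50 and 6.97 in normoxia lung and 8.60, 8.63 and 9.12 in hyperoxia lung, and 9.05, 9.25 and 9.25 in normoxia ileum and 8.71, 8.76 and 8.00 in hyperoxia ileum. In normoxia the ileum stood above the lung on every array, and in hyperoxia the ranges met. A second Tk1 probe gave an interaction of -1.19 (adjusted p = 0.0776). Plk1, a mitotic kinase, Cdc45 and Mcm5, which belong to the replicative helicase, and Mcm3 were opposite as Tk1 was, with ileum falls of 0.64 to 0.75 for the first 3. Their ileum calls were near the threshold, and the opposite class of Tk1, Plk1, Cdc45 and Mcm5 was lost without normoxia ileum replicate 2 or 3 or hyperoxia ileum replicate 3. It was also lost for Tk1 without normoxia lung replicate 1, for Tk1, Plk1 and Mcm5 without normoxia ileum replicate 1, for Plk1 without hyperoxia ileum replicate 1, and for Cdc45 and Mcm5 without hyperoxia ileum replicate 2, and held under 13, 17, 14 and 16 alternatives. Cdk1, the mitotic kinase, was lung-only, with a log2 fold change of 1.58 in the lung and -0.02 in the ileum.

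Among p53 targets, of 21 tested, 8 rose and 1 fell in the lung, and 6 rose and 3 fell in the ileum. The interaction was lower for 6 and higher for 2 (38.1% called, beside 27.2% of all genes). Cdkn1a was the 1 opposite member of the list, which did not hold Sfn. Zmat3, an RNA-binding p53 target, rose by 1.86 in the lung, with an ileum value of 0.08 (adjusted p = 0.803). Sesn1, a sestrin, fell by 1.25 in the lung, with an ileum value of 0.19. Its other probes gave smaller interactions (0.79, adjusted p = 0.0725, and 1.10, adjusted p = 0.0227) than the 1.44 of the probe used. Mdm2, the ubiquitin ligase that degrades p53, rose by 1.31 in the lung and was not called in the ileum (0.40, adjusted p = 0.113) by the probe used. Its second probe gave 1.58 in the lung and 1.24 in the ileum, an interaction of -0.34 (adjusted p = 0.377). The interaction of Mdm2 by the probe used was -0.91, and -0.82 without normoxia lung replicate 1 (adjusted p = 0.0525). With the signal covariate, lower interactions were called for 1 gene of the list and higher for 0, and those of Zmat3 and Sesn1 were not called.

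**Figure D3:**
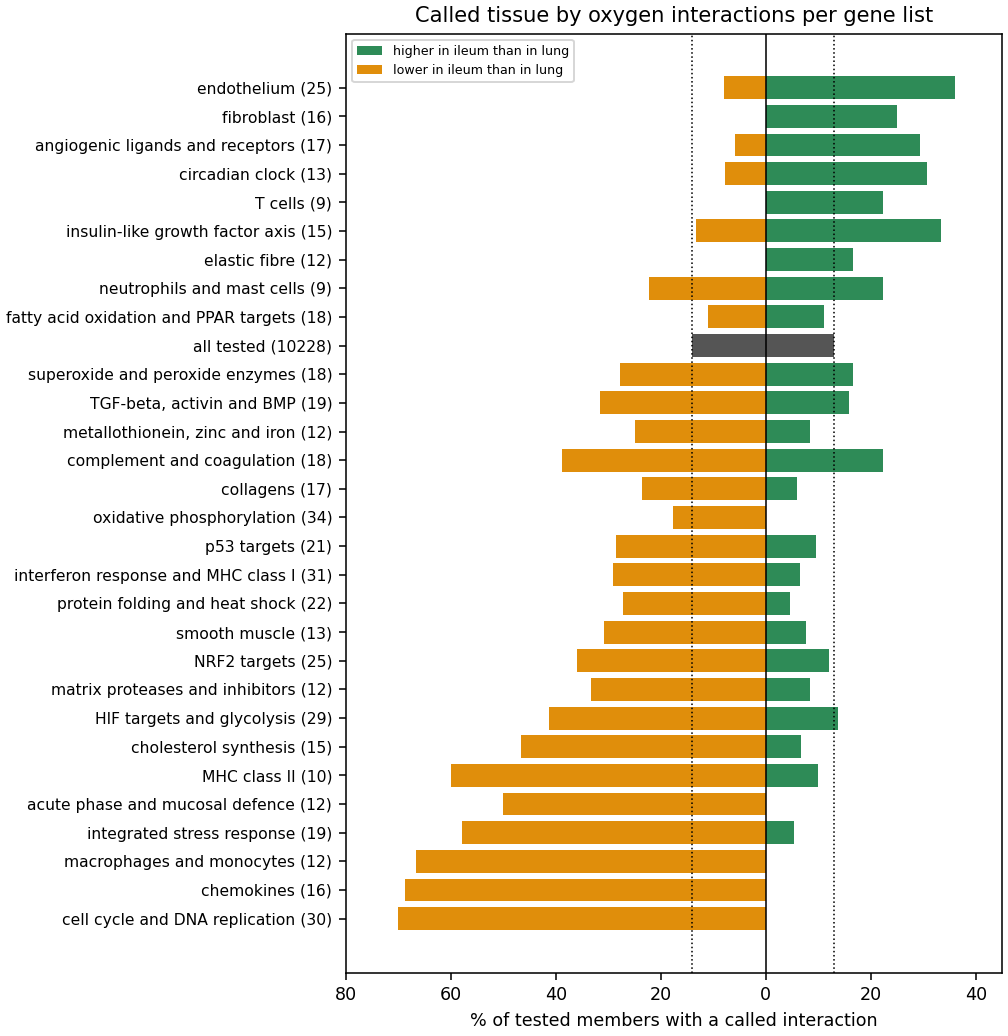
For each list with at least 9 tested genes (number tested in brackets), bars give the percentage of tested members with a called interaction, to the left where the ileum response was lower than that of the lung and to the right where it was higher; dotted lines and the grey bar mark the 14.1% and 13.0% of all 10228 genes. Cell cycle genes (70.0%) and chemokines (68.8%) reach far to the left and endothelium stands at the top.

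Antioxidant genes did not respond as a block. Of 25 tested NRF2 targets, 11 rose in the lung and 0 fell, whereas in the ileum 6 rose and 5 fell, and the interaction was lower for 9 and higher for 3. Srxn1, the sulfiredoxin that reactivates peroxiredoxins, read 7.59, 7.31 and 7.48 in normoxia lung and 9.91, 9.88 and 9.85 in hyperoxia lung. In the ileum it read 11.32, 11.62 and 11.67 in normoxia and 11.27, 11.33 and 11.26 in hyperoxia, above all lung arrays and with no called change (-0.26, adjusted p = 0.216). Akr1b8, an aldo-keto reductase, was alike, with a lung rise of 2.37 and an ileum value of -0.26. Hmox1, heme oxygenase, rose in both tissues, by 2.51 in the lung and by 1.00 in the ileum on the log2 scale. Its ileum groups overlapped, and the interaction of Hmox1 (-1.51, adjusted p = 0.0236) became -1.29 without normoxia ileum replicate 3 (adjusted p = 0.0649). Osgin1, an oxidative stress growth inhibitor, was opposite (0.86 in the lung and -1.08 in the ileum).

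Glutathione transferases of the alpha class went the other way. Gsta3 read 10.76, 10.09 and 10.97 in normoxia lung and 10.63, 10.26 and 9.49 in hyperoxia lung, which overlap, and 9.11, 8.83 and 9.16 in normoxia ileum against 10.53, 10.99 and 11.18 in hyperoxia ileum, which do not. The ileum rise was 1.87 on the log2 scale (interaction 2.35 ± 0.41, adjusted p = 0.00154), and a second Gsta3 probe gave a smaller interaction (0.78, adjusted p = 0.153). Gsta1 rose by 1.40 in the ileum, and since the genes of this class are near-identical copies their probes may share signal. Me1, the malic enzyme that supplies NADPH, was the 1 shared NRF2 target (0.83 in the ileum and 1.34 in the lung), although without hyperoxia ileum replicate 3 its interaction was called (-0.68, adjusted p = 0.0399).

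Srxn1 and Gsta3 thus rose in different tissues, yet the same short motif was present at both starts. The RefSeq promoter table (GRCm38.p6) held 8287 of the 10228 genes, each with 250 bases before the start and 50 after it. The antioxidant response element was searched as TGACNNNGC on both strands. It was found in 1382 promoters (16.7%) and in 7 of the 23 NRF2 targets with a promoter. Both sequences are shown 5′ to 3′ in the direction of the gene, with the match in capitals.
Srxn1, chr2:152105274-152105573, plus strand: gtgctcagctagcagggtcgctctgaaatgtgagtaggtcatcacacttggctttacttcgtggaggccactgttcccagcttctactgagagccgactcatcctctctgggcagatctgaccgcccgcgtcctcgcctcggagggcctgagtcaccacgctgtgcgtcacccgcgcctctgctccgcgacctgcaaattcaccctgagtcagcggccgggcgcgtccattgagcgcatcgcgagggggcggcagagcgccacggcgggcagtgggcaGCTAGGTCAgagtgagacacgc
Gsta3, chr1:21240335-21240634, plus strand: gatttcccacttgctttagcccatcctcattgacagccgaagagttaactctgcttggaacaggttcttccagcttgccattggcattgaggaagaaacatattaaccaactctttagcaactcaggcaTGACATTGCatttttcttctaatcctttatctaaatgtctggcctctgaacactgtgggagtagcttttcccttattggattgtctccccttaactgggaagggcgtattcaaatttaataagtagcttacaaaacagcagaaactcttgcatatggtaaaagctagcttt
In the Srxn1 window the match runs on the reverse strand, downstream of the start, and in Gsta3 on the forward strand, upstream of it. A match is a description of the letters and not of binding.

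Most genes of the integrated stress response rose in the lung, and none had a called rise in the ileum. Of 19 tested genes, 12 rose and 1 fell in the lung, 0 rose and 7 fell in the ileum, and the interaction was lower for 11 and higher for 1. Atf3, a transcription factor of this response, read 5.35, 4.83 and 5.43 in normoxia lung and 7.60, 7.42 and 8.35 in hyperoxia lung. In the ileum it read 7.04, 6.75 and 6.29 against 6.46, 6.88 and 5.96, which overlap. Ddit3, the transcription factor CHOP, rose by 1.62 and Asns, asparagine synthetase, by 1.14 in the lung, with ileum values of 0.05 and -0.37. Trib3, a pseudokinase that ATF4 induces, rose by 0.84 in the lung and fell by 1.18 in the ileum on the log2 scale, with no overlap in either tissue. With the signal covariate, lower interactions were called for 6 genes of the list.

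Oxygen-handling genes were mixed. Of 18 tested superoxide and peroxide enzymes, the interaction was lower for 5 and higher for 3. Sod2, the mitochondrial superoxide dismutase, rose by 0.81 in the lung with an ileum value of -0.65 (adjusted p = 0.0604) and was lung-only under 12 of 25 alternatives, but not without replicate 1 or 2 of normoxia lung, hyperoxia lung or hyperoxia ileum. Cat, catalase, fell by 0.93 in the lung with an ileum value of 0.47 (adjusted p = 0.136). Of 29 tested HIF targets and glycolytic genes, 15 rose in the lung and 2 in the ileum, and the interaction was lower for 12 and higher for 4. The count of 12 was 7 with the signal covariate and 19 with array weights. Egln3, a prolyl hydroxylase of HIF, rose by 2.35 in the lung and read -0.33 in the ileum, and Gapdh, the glycolytic dehydrogenase, rose by 1.00 with -0.36 in the ileum. Gapdh read 11.44, 11.50 and 11.51 in normoxia lung and 12.39, 12.50 and 12.57 in hyperoxia lung, and in the ileum 12.25, 12.25 and 12.46 against 12.05, 12.16 and 11.67.

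**Figure D4:**
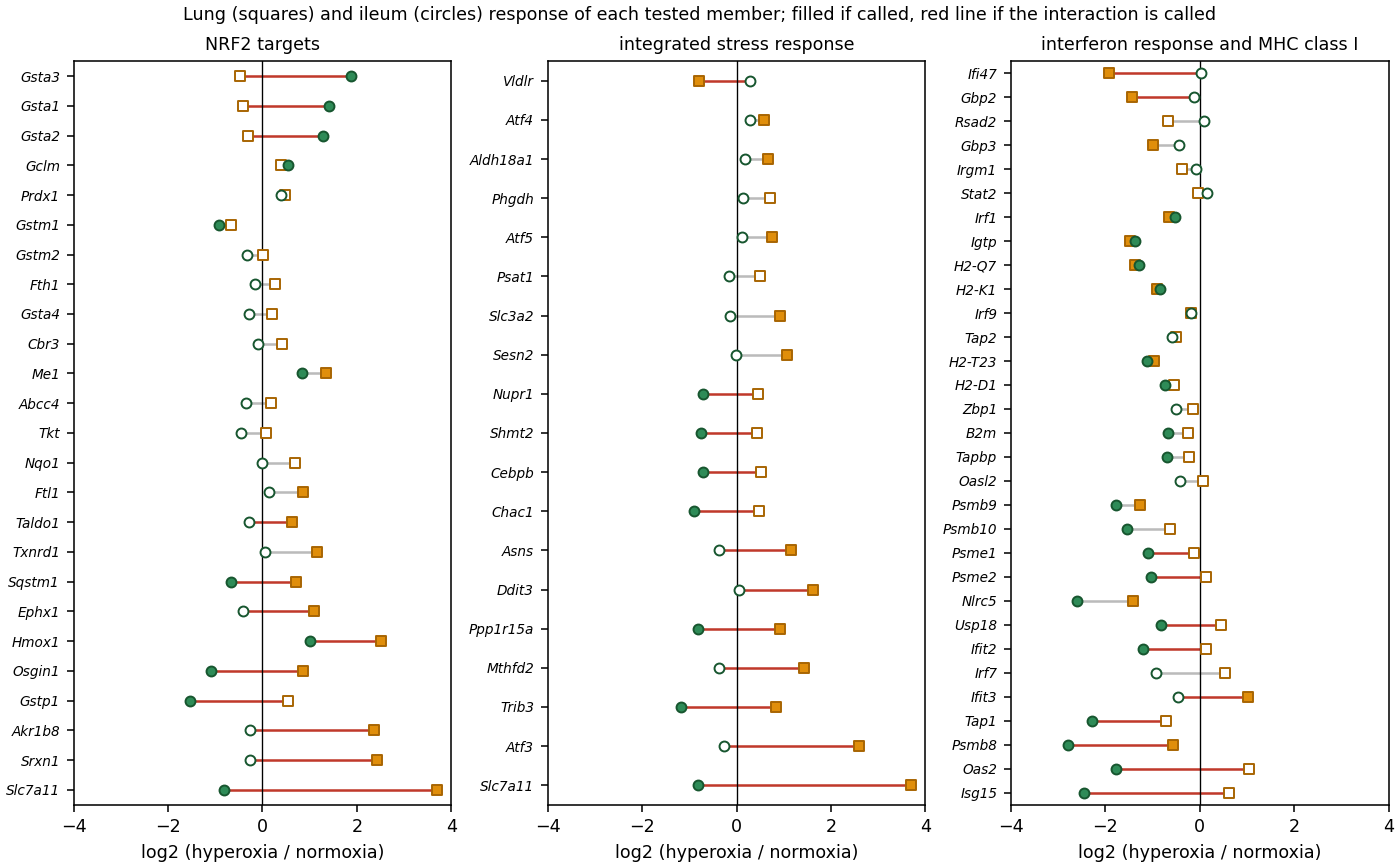
Log2 fold change (x axis) in the lung (squares) and in the ileum (circles) of every tested member of 3 lists, ordered by the interaction; symbols are filled where the change was called and lines are red where the interaction was called. Srxn1, Atf3 and Slc7a11 change on the lung side alone or in opposite directions, Gsta3 on the ileum side, and in the interferon list Igtp and H2-K1 lie together while Isg15 and Ifi47 part.

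The largest ileum-only rise was that of Nox4, the NADPH oxidase that makes hydrogen peroxide. In the ileum it read 5.51, 5.81 and 5.86 in normoxia and 9.68, 9.95 and 10.45 in hyperoxia, and in the lung 9.10, 9.06 and 8.97 against 9.31, 9.63 and 8.66. The hyperoxia ileum came to the level that the lung held in both exposures, with an ileum rise of 4.30 and a lung value of 0.16 (adjusted p = 0.703). The interaction was 4.14 ± 0.34 (adjusted p = 6.56e-06). Gulp1, an adaptor for the uptake of dying cells, Ros1, a receptor tyrosine kinase, Serpinb6b, a protease inhibitor, and Sfpq, a splicing factor, followed with interactions of 2.43 to 2.90. Acvr2a, a receptor for activin, had an interaction of 2.59, with a lung value of -0.94 (adjusted p = 0.0632), and its class was lost on leaving out any 1 hyperoxia ileum array.

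Ileum-only falls were led by Saa1, a second serum amyloid, and Ada, adenosine deaminase. Saa1 read 9.32, 9.05 and 9.14 in normoxia ileum and 5.19, 4.84 and 5.65 in hyperoxia ileum. In the lung it stayed near background, at 5.30, 4.63 and 4.72 against 5.56, 5.28 and 4.90, where 1 normoxia array and 2 hyperoxia arrays detected it. Ada fell from 9.58, 9.08 and 9.07 to 5.88, 5.55 and 4.85 in the ileum, with lung values of 5.15 to 5.94. Upp1, uridine phosphorylase, fell by 2.82 in the ileum and was not called in the lung (0.32, adjusted p = 0.414). Susd2, a membrane protein, and Pglyrp1, which binds bacterial peptidoglycan, had interactions of -3.70 and -3.01, but a second Pglyrp1 probe gave -0.09 (adjusted p = 0.856).

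Of 10 tested MHC class II genes, which present antigen, 8 fell in the ileum and 2 in the lung, and 6 were ileum-only. The interaction was lower for 6 and higher for 1. H2-DMa, which loads peptide, read 8.92, 9.69 and 9.94 in normoxia ileum and 7.96, 7.66 and 7.05 in hyperoxia ileum, against 9.66, 10.19 and 9.84 and 9.77, 9.52 and 9.95 in the lung. H2-Ab1, a class II chain, fell by 1.48 in the ileum with a lung value of -0.13, and its other probes gave interactions of -0.96 (adjusted p = 0.0529) and -1.09 (adjusted p = 0.0546) against -1.35. The count of 6 lower interactions was 2 without normoxia lung replicate 1 or normoxia ileum replicate 3, 3 without normoxia lung replicate 3, normoxia ileum replicate 2, hyperoxia lung replicate 1, hyperoxia lung replicate 3 or hyperoxia ileum replicate 3, and 1 with the signal covariate. Of 7 tested genes of ileum epithelium, the interaction was lower for 4. Fabp6, the ileal bile acid binding protein, read 13.01, 13.61 and 13.54 in normoxia ileum and 11.28, 11.66 and 9.54 in hyperoxia ileum, and Anpep, a brush border peptidase, fell by 2.19.

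Lung-only rises were led by Inhba, the subunit of activin A. It read 5.06, 5.55 and 5.43 in normoxia lung and 10.54, 10.43 and 9.79 in hyperoxia lung, and 7.02, 6.45 and 6.56 against 6.55, 6.38 and 6.32 in the ileum. The ileum arrays stood between the lung groups and did not change by a called amount, with a lung rise of 4.91 and an ileum value of -0.26 (interaction -5.17 ± 0.31, adjusted p = 4.20e-07). Timp1, an inhibitor of matrix proteases, read 7.89, 7.86 and 7.92 in normoxia lung and 11.75, 12.37 and 12.77 in hyperoxia lung, with an ileum value of -0.10. Mmp10, a matrix protease, was not detected on any normoxia lung array and rose at least 13.6-fold, and in the ileum its level was 8.41 to 9.33 over the 6 arrays, with an uncalled value of 0.58. Igf1, a growth factor, rose by 3.31 in the lung, with an ileum value of 0.58 (adjusted p = 0.0631). Mgmt, a DNA repair protein, and Rgs16, a regulator of G protein signalling, had interactions of -3.86 and -3.82.

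Of 13 tested smooth muscle genes, 7 rose in the lung and 1 in the ileum, and the interaction was lower for 4 and higher for 1. Tagln, an actin-binding protein of smooth muscle, read 6.88, 7.48 and 7.39 in normoxia lung and 9.81, 10.00 and 9.51 in hyperoxia lung, against 8.81, 8.43 and 8.37 and 9.26, 9.15 and 8.72 in the ileum. Acta2, smooth muscle actin, read 12.96, 13.08 and 13.46 in normoxia lung and 14.45, 14.57 and 14.49 in hyperoxia lung. Its ileum arrays read 14.35 to 14.55, near the highest normalized value of any tested gene (14.79).

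Lung-only falls were led by Gria1, an AMPA-type glutamate receptor, Vsnl1, a neuronal calcium sensor, and Tmem100, a membrane protein of lung endothelium. Gria1 read 9.33, 8.91 and 9.13 in normoxia lung and 5.54, 5.22 and 4.75 in hyperoxia lung, where 1 array detected it, and 5.26 to 6.41 in the ileum. Vsnl1 fell by 3.24 in the lung, and its ileum arrays read 5.22, 5.32 and 5.63 in normoxia and 5.45, 5.76 and 5.96 in hyperoxia. Both genes read low in the ileum, which limits how far a fall could show there. Tmem100 fell from 13.31, 13.33 and 13.03 to 10.21, 10.98 and 9.54 in the lung, with an ileum value of 0.23. Kit, the stem cell factor receptor, read 12.16, 12.22 and 12.06 in normoxia lung and 9.10, 9.75 and 9.30 in hyperoxia lung, and 9.99 to 10.51 over the ileum arrays. The lung thus stood above the ileum in normoxia and below it in hyperoxia. Hpgd, which inactivates prostaglandins, crossed in the same way, with a lung fall of 2.65 and an ileum value of 0.36.

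Endothelial genes fell in the lung and in part in the ileum. Of 25 tested, 19 fell in the lung and 7 in the ileum, the interaction was higher for 9 and lower for 2, and 5 fell in both as shared genes. With the signal covariate the interaction was higher for 5. Vwf, von Willebrand factor, read 11.63, 11.68 and 11.61 in normoxia lung and 9.78, 9.79 and 10.13 in hyperoxia lung, and in the ileum 7.69, 7.76 and 7.63 against 7.45, 7.38 and 7.34. The ileum groups did not overlap, but their difference of -0.30 was not called (adjusted p = 0.139). Ednrb, an endothelin receptor, fell by 1.71 in the lung with an ileum value of 0.25. Pecam1, an adhesion molecule of endothelium, was shared: it fell by 0.78 in the lung and by 0.74 in the ileum, and the 95% interval of the difference ran from -0.58 to 0.66. It held as shared under 18 of 25 alternatives. The mean log2 intensity of the 28 endothelial genes with a probe was 10.55 to 10.70 in normoxia lung and 9.46 to 9.71 in hyperoxia lung, and 7.76 to 7.82 and 7.21 to 7.63 in the ileum. The count of 5 shared genes was 3 without normoxia ileum replicate 1, 2 without normoxia ileum replicate 3 and 1 without hyperoxia ileum replicate 3.

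Shared rises included coagulation and signalling genes. Rcan1, an inhibitor of calcineurin, read 10.67, 10.75 and 10.79 in normoxia lung and 12.18, 11.91 and 11.88 in hyperoxia lung, and 10.02, 9.93 and 10.01 against 11.46, 11.61 and 11.45 in the ileum. It rose by 1.25 in the lung and 1.52 in the ileum, with a 95% interval of the difference from -0.17 to 0.70. A second Rcan1 probe gave -0.07 for the difference. Lrrn1, a leucine-rich repeat protein of neurons, rose by 2.06 in the lung and 2.48 in the ileum (interval -0.28 to 1.13), and F13a1, the A subunit of coagulation factor XIII, by 1.72 and 1.93 (interval -0.74 to 1.16). Krt14, a basal cell keratin, and Kng1, kininogen, were not detected on any normoxia lung array and rose there at least 3.14-fold and 2.03-fold, with called rises in the ileum. Anxa8, an annexin, rose in the ileum at least 2.85-fold from a normoxia group that no array detected.

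**Figure D5:**
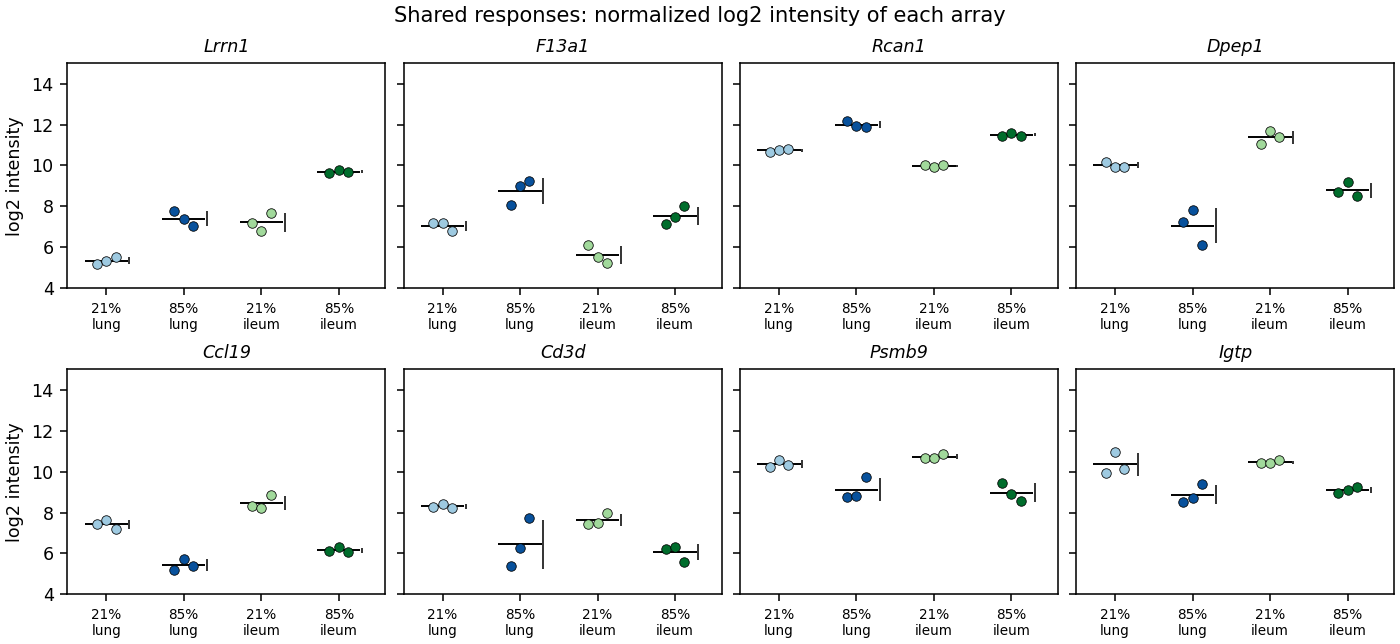
Normalized log2 intensity (y axis) of every array for 8 genes with shared responses, with the lung in 21% and 85% oxygen, then the ileum in 21% and 85% oxygen, along the x axis; dots are arrays, horizontal bars group means and vertical bars 1 SD (n = 3). Rcan1, Lrrn1 and F13a1 rise and the other 5 genes fall in both tissues, and the hyperoxia lung arrays of Cd3d spread from 5.37 to 7.73.

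Most T cell genes fell in both tissues. Of 9 tested, 7 fell and 1 rose in the lung, 6 fell in the ileum, and 5 were shared falls. The interaction was higher for 2 and lower for 0 (22.2% called, beside 27.2% of all genes). Nkg7 fell by 2.45 in the lung, with a low ileum level and an ileum value of -0.86. Cd2 fell by 1.79 in the lung and at least 1.58-fold in the ileum, where no hyperoxia array detected it. The size of its ileum fall is thus not known. Cd8b1, a CD8 chain, read 10.18, 10.65 and 10.44 in normoxia lung and 10.78, 11.04 and 11.19 in hyperoxia lung, but its second probe fell by 1.47 there. Cd3d, a signalling chain of the T cell receptor, read 8.28, 8.43 and 8.20 in normoxia lung and 5.37, 6.24 and 7.73 in hyperoxia lung, and 7.46, 7.51 and 7.96 in normoxia ileum against 6.24, 6.32 and 5.60 in hyperoxia ileum. Hyperoxia lung replicate 3 was the highest of its group for Cd3d, Cd3e and Cd3g, but still below normoxia. Cd3e fell by 1.46 in the lung and at least 2.93-fold in the ileum, where no hyperoxia array detected it. The interval of the tissue difference for Cd3d ran from -1.02 to 1.55, which holds a 2-fold difference in either direction. Without normoxia ileum replicate 3, 2 of the 9 genes were shared. The mean log2 intensity of the 15 T cell genes with a probe was 6.65 to 6.87 in normoxia lung and 5.64 to 6.51 in hyperoxia lung, and 6.06 to 6.48 against 5.51 to 5.67 in the ileum. Ccl19, which guides T cells and dendritic cells, fell with them, from 7.45, 7.62 and 7.18 to 5.18, 5.72 and 5.40 in the lung and from 8.34, 8.22 and 8.84 to 6.10, 6.29 and 6.07 in the ileum. Ccl5, a chemokine made by T cells, fell by 2.88 in the lung and at least 4.34-fold in the ileum. Dpep1, a membrane dipeptidase, fell by 2.95 and 2.58 (interval -0.65 to 1.40).

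Interferon-induced genes divided over the classes. Of 31 tested interferon-induced and MHC class I genes, 19 fell in the ileum, and 11 fell and 1 rose in the lung. Shared falls numbered 7 and ileum-only falls 7. The interaction was lower for 9 and higher for 2 (35.5% called, beside 27.2% of all genes). H2-K1, a classical MHC class I chain, fell by 0.83 in the ileum and 0.91 in the lung (interval -0.63 to 0.78) and held as shared under 18 of 25 alternatives, although a second probe gave a difference of 0.76, and sequences of this family are alike. Psmb9, a subunit of the immunoproteasome, fell by 1.77 and 1.26. Psmb8, another subunit, read 10.15, 10.60 and 10.59 in normoxia ileum and 7.62, 7.89 and 7.48 in hyperoxia ileum, and 10.26, 10.38 and 10.17 against 9.83, 9.62 and 9.68 in the lung. Its log2 fold change was -2.78 in the ileum and -0.56 in the lung, and these differed (interaction -2.22 ± 0.24, adjusted p = 6.55e-05). The unequal class was lost on leaving out any 1 lung array. The count of 7 shared falls was 4 without normoxia lung replicate 2, hyperoxia lung replicate 1 or hyperoxia lung replicate 2.

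Isg15, the ubiquitin-like modifier that interferon induces, read 10.57, 10.01 and 10.30 in normoxia ileum and 8.15, 8.43 and 6.95 in hyperoxia ileum, while its lung arrays overlapped, at 9.43, 9.09 and 8.88 against 9.28, 9.49 and 10.47. Ifit3, an antiviral protein, rose in the lung from 10.51, 10.98 and 10.26 to 11.41, 11.45 and 11.99, and was not called in the ileum (-0.47, adjusted p = 0.116). Gbp2, a guanylate-binding protein, fell in the lung from 11.01, 12.00 and 11.14 to 9.66, 9.89 and 10.30, with an ileum value of -0.12. Igtp, an interferon-gamma induced GTPase, fell in both tissues, from 9.95, 10.98 and 10.12 to 8.49, 8.71 and 9.40 in the lung and from 10.44, 10.40 and 10.55 to 8.95, 9.11 and 9.23 in the ileum. These 4 genes thus took 4 patterns: ileum-only fall, lung-only rise, lung-only fall and shared fall. For Gbp2 a second probe gave a smaller interaction (0.76, adjusted p = 0.218) than the 1.31 of the probe used.

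The interferon-stimulated response element was searched as GAAA, any 2 bases and GAAA, on both strands. It was found in 323 of 8287 promoters (3.90%) and in 11 of the 26 interferon and MHC class I genes with a promoter. By class, it was in 8 of 96 promoters of shared falls (8.33%), 25 of 474 of ileum-only falls (5.27%), 16 of 371 of lung-only rises (4.31%) and 12 of 359 of lung-only falls (3.34%). All 4 genes just described carried it, and they are shown because the letters were shared where the patterns were not. Sequences are from RefSeq (GRCm38.p6), 5′ to 3′ in the direction of the gene, with matches to this element in capitals, and in Igtp also an upstream match to the antioxidant element.
Isg15, chr4:156200769-156201068, minus strand: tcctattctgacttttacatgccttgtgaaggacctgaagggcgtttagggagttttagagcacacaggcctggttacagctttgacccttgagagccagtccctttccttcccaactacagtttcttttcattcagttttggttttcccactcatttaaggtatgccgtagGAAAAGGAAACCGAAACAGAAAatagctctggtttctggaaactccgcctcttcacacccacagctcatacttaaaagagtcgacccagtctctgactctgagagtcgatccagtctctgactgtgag
Ifit3, chr19:34583279-34583578, plus strand: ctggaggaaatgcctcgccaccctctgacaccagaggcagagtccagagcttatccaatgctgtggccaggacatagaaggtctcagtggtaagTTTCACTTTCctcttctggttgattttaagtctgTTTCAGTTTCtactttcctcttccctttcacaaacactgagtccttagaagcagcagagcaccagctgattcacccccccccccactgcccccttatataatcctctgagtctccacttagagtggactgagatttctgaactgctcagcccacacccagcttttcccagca
Gbp2, chr3:142620413-142620712, plus strand: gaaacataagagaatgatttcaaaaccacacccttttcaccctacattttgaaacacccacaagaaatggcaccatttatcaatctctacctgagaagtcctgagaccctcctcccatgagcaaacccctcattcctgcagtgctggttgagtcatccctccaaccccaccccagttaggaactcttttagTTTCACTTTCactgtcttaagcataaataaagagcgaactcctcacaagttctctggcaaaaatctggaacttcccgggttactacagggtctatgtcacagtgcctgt
Igtp, chr11:58199306-58199605, plus strand: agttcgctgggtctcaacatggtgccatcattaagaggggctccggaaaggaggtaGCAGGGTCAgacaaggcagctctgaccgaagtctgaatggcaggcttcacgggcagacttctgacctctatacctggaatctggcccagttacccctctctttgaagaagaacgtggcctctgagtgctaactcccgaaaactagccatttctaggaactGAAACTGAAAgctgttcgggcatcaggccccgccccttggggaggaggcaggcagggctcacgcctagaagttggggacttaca
Isg15 held 3 overlapping matches in 1 run, Ifit3 held 2, and Gbp2 and Igtp 1 each.

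Where both tissues changed in the same direction but by unequal amounts, the lung usually changed more. Mmp13, a collagenase, read 6.58, 6.93 and 6.28 in normoxia lung and 10.30, 9.72 and 9.66 in hyperoxia lung, and 8.16, 7.53 and 7.09 against 8.37, 8.31 and 8.87 in the ileum. It rose by 3.30 in the lung and 0.93 in the ileum (interaction -2.37 ± 0.39, adjusted p = 0.00105). Its unequal class held under 18 of 25 alternatives and was lost without normoxia ileum replicate 2, normoxia ileum replicate 3 or hyperoxia ileum replicate 3, while the interaction was called under all 25. Adcy8, a calcium-stimulated adenylyl cyclase, read 9.35, 9.62 and 9.31 in normoxia lung and 5.20, 5.30 and 5.30 in hyperoxia lung, and 7.75, 7.49 and 8.14 against 7.13, 6.77 and 7.10 in the ileum. The fold change was -4.16 in the lung and -0.80 in the ileum on the log2 scale, with no overlap in either. Bhlhe40, a hypoxia-induced repressor that also acts on the clock, rose by 1.55 in the lung and 0.57 in the ileum, and its unequal class held under 16 of 25 alternatives and was lost on leaving out any 1 normoxia ileum array, hyperoxia ileum replicate 2 or hyperoxia ileum replicate 3. Of 13 tested clock genes the interaction was higher for 4, a count that was 2 without normoxia lung replicate 1 or 2, normoxia ileum replicate 2 or 3, or hyperoxia lung replicate 1 or 3.

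Genes that the study names for these arrays were placed by the same rule. Lyz1, the lysozyme of Paneth cells, was ileum-only: it read 14.61, 14.61 and 14.59 in normoxia ileum and 13.47, 13.99 and 13.54 in hyperoxia ileum, and 14.17 to 14.61 over the lung arrays. Those levels lie near the highest normalized value of any tested gene (14.79), and the difference of -0.79 (adjusted p = 0.0273) was called under 16 of 25 alternatives. The interaction of Lyz1 was not called on leaving out any 1 normoxia lung array, normoxia ileum replicate 2 or 3, or hyperoxia lung replicate 1 or 3 (adjusted p from 0.0502 to 0.0657). Of its other probes, 1 gave an interaction of -1.44 (adjusted p = 0.0120) and 1 gave -0.58 (adjusted p = 0.211). Their ileum values were -2.02 and -1.39, larger falls than the -0.94 of the probe used. What the probe used reads in the lung, at the level of the ileum, was not tested. Reg3g, an antimicrobial lectin, had an interaction of -4.51 ± 1.37 (adjusted p = 0.0273). Its normoxia lung arrays read 6.60, 4.70 and 10.41 and overlapped the hyperoxia lung arrays, at 9.88, 10.94 and 9.77. The ileum arrays read 13.46, 13.58 and 13.17 against 11.08, 12.54 and 11.93 without overlap, yet the ileum difference of -1.55 was not called (adjusted p = 0.246). The fit used a common residual variance per gene for all groups, so the wide scatter of normoxia lung entered that p-value. The missing call therefore does not show that the ileum was unchanged, and the study reports Reg3g as decreased in the ileum. The lung-only class held under 6 of 24 alternatives. The interaction of Reg3g was not called without normoxia lung replicate 1, normoxia ileum replicate 2 or 3, or hyperoxia lung replicate 2 (adjusted p from 0.0515 to 0.0648). Il1b, an inflammatory cytokine, had no called interaction (-1.13, adjusted p = 0.108), but had one without hyperoxia lung replicate 1 (-1.48, adjusted p = 0.0393). Tnf, Il6, Pnliprp2 and Guca2b were not detected in both tissues and were not tested.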

How the data were processed

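Probe intensities on the MouseWG-6 v2.0 array were deposited as bead averages, without background subtraction or normalization, as exported by GenomeStudio 2011.1 per the submitters' processing notes. The deposited detection p-values set each probe against the array's negative controls. The methods name GeneSpring GX, a two-way analysis of variance whose factors are not stated, a Benjamini-Hochberg threshold and a fold-change limit. A second deposited set of normalized intensities, made by a method not stated in the sources used, served as an alternative.

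Intensities were background-corrected, quantile-normalized and taken to log2 by neqc in limma 3.58.1 (R 4.3.3, offset 16). Of 45281 probes, 34885 had 1 gene symbol, 18 several and 10378 none, and those with 1 symbol were used. A gene was tested when 1 probe was detected (deposited detection p-value under 0.05) on 3 or more of the 6 arrays of both tissues, and the brightest such probe over the 12 arrays stood for it. A limma fit of the 4 group means gave the contrasts in ileum, lung and their difference, adjusted over the 10228 genes. Where no array of a group detected a probe, a fold is a bound from the mean of the other group and the lowest detected signal. Adjusted p-values in the text are limma's, on the log2 scale. Those given for other probes of a gene came from a separate adjustment and are not on quite the same scale. With 3 arrays against 3, exact tests of single genes were not made. The steps after normalization were tested on simulated data.

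Genes, lists and tests were chosen with earlier results of these data known. Among genes whose arrays did not overlap between exposures in each called tissue, leaving out predicted genes, those named are up to 6 of each direction in the opposite, single-tissue and shared classes, up to 4 of each direction with unequal size, up to 4 of each list by moderated statistic, and the genes the study names. A gene may be named under several of these. Gsta1, Gsta3, Hmox1, Me1, Igtp, Gbp2, Psmb9, H2-K1, Cd3e, Cd3g, C1qb, Cxcl10, Arg1, Pecam1, Ddit3, Mdm2, Cdk1 and Mcm3 were named after their values were seen. Alternatives changed the background correction, scaling, detection filter, model, covariate, probes, threshold and arrays. Plots were made in Python 3.11.15 (matplotlib 3.10.9).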

Additional observations from a re-analysis of the deposited data

Results flagged for a closer look

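For each gene below the response to hyperoxia differed between the ileum and the lung by the test of the difference itself (limma, adjusted p under 0.05), and its value is the log2 difference, ileum minus lung. Among genes that rose in the ileum and fell in the lung these were Fmo1 (4.39), Fndc5 (4.29), Pdzd2 (3.94), Cacnb2 (3.81), Calcrl (3.64) and Sema6a (3.63). Among genes that fell in the ileum and rose in the lung they were Saa3 (-6.50), Cdkn1a (-5.12), Slc7a11 (-4.53), Serpina3n (-4.12), Lcn2 (-3.53) and Sfn (-3.44). No hyperoxia ileum array detected Slc7a11, Serpina3n or Lcn2, and no normoxia ileum array detected Calcrl. The values of these genes thus include an ileum fold that is known only as a bound.

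Ileum-only rises had values for Nox4 (4.14), Gulp1 (2.90), Ros1 (2.62), Acvr2a (2.59), Serpinb6b (2.47) and Sfpq (2.43), and ileum-only falls for Saa1 (-4.30), Ada (-4.25), Susd2 (-3.70), Upp1 (-3.14), Isg15 (-3.06) and Pglyrp1 (-3.01). Lung-only rises had values for Inhba (-5.17), Ccl7 (-4.61), Timp1 (-4.51), Cxcl1 (-4.12), Mgmt (-3.86) and Rgs16 (-3.82), and lung-only falls for Gria1 (3.64), Vsnl1 (3.58), Tmem100 (3.21), Hpgd (3.01), Kit (2.97) and Ccdc3 (2.96). In the class of unequal changes in the same direction, the rises gave Mmp13 (-2.37), Slc19a2 (-1.64), Cyp7b1 (-1.24) and Spc25 (-1.16) and the falls Adcy8 (3.36), Psmb8 (-2.22), Apol11b (1.89) and Mustn1 (1.43). The difference of Mustn1 was called under 12 of 25 alternatives and lost on leaving out any 1 normoxia array, hyperoxia lung replicate 1, hyperoxia lung replicate 2 or hyperoxia ileum replicate 2. Slc19a2 kept its class under 12 of 25, losing it without normoxia lung replicate 1 or 3, normoxia ileum replicate 2 or 3, hyperoxia lung replicate 1 or hyperoxia ileum replicate 3. A second Spc25 probe gave -0.54 (adjusted p = 0.137).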

How the results depend on the processing

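In the order interaction, opposite, shared, unequal, ileum-only and lung-only, the counts were 2778, 284, 223, 27, 1138 and 947. Signal over background as a covariate gave 1001, 61, 43, 2, 114 and 630. With array weights the first 4 were 4400, 818, 698 and 199. Unadjusted p-values with a 2-fold limit gave 49, 58, 11, 493 and 566 for the last 5, and no background correction gave 42 unequal genes. Leaving out single arrays gave 1923 to 3272, 143 to 363, 125 to 280, 9 to 36, 484 to 1605 and 650 to 1271, with unequal genes at 14 without normoxia lung replicate 1 or normoxia ileum replicate 2 and at 9 without normoxia ileum replicate 3. The cause of these shifts was not tested. All other counts lay within 1.5 times. The replicate block gave 2369 interaction genes and changed no count by more than that. Whether lung and ileum arrays of 1 number came from 1 animal was not stated in the sources used. The correlation of their deviations from the group means was 0.0835, 0.0437 and 0.112 in normoxia and -0.0329, -0.00827 and -0.0885 in hyperoxia. Each normoxia lung array correlated best with the ileum array of its number, and no hyperoxia lung array did, so pairing remains undecided. Over all 18 same-numbered pairs, most of which cross exposures or stay within a tissue, it exceeded 0.1 for 2.

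Of 167 named genes with a called interaction, 103 were called in the same direction under all alternatives (25 at most). The tissue difference of Cd200, a shared fall, went from -0.02 to 0.79 (adjusted p = 0.031) with the mean of all tested probes. The share of interaction calls that were higher was 43.7% to 51.1% over all settings, against 47.9%. Tissue by source name could not be fitted. Dim probes near background and probes near the top of the scale limit the folds.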

Other observations

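Of 15 tested genes of cholesterol synthesis, the interaction was lower for 7 and higher for 1. Lss, lanosterol synthase, read 5.96, 5.98 and 6.09 in normoxia lung against 7.23, 7.17 and 7.13 in hyperoxia lung, and in the ileum 7.84, 7.74 and 7.65 against 7.01, 6.79 and 6.37. It was opposite, with a difference of -2.18 (limma adjusted p = 6.55e-05), but a second Lss probe gave -0.67 (adjusted p = 0.0897). The count of 7 was 3 without normoxia lung replicate 1 or normoxia ileum replicate 2, and 4 without normoxia lung replicate 2, hyperoxia lung replicate 1 or hyperoxia lung replicate 2.

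Of 16 tested fibroblast genes the interaction was higher for 4 and lower for 0 (25% called, beside 27.2% of all genes). Pdgfra, a growth factor receptor of fibroblasts, fell by 1.96 in the lung with an ileum value of 0.08. Of 18 tested complement and coagulation genes, 10 rose in the lung and 4 in the ileum. C1qb, a chain of complement C1q, rose by 1.47 in the lung and read -0.55 in the ileum, without a call. Metallothionein Mt1, which binds zinc and copper, rose by 1.38 in the lung and fell by 0.90 in the ileum on the log2 scale, a class that held under 15 of 25 alternatives. The mast cell protease Cpa3 rose by 2.82 in the lung, while Kit, which mast cells also carry, fell there. Of 34 tested genes of oxidative phosphorylation the interaction was lower for 6 and higher for 0, which is 17.6% called beside 27.2% of all genes. The count of 6 was 15 without hyperoxia ileum replicate 1 and 0 with the signal covariate.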
